A study of Sus scrofa with 15 samples.

Results

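The 8 genes described here act in DNA replication and in the entry into mitosis: MCM3, PRIM2, PCNA, BIRC5, CDK1, CCNB1, CCNB2 and CDC25C. They were found as the non-control array probes whose gene name, description, accession or gene ID names one of these genes, which gave 14 of 43603 probes and 8 of the 4535 genes that could be tested. The genes had been picked with earlier results of the same arrays in view, so their difference between the pig lines is given as a description and carries no test. All 14 probes passed the filter on dim signals.

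A dividing cell first copies its DNA and then separates the copies. MCM3 is a subunit of the MCM helicase that opens the double helix, PRIM2 is the large subunit of the primase that lays down RNA primers, and PCNA is the ring that holds DNA polymerase on the template. CDK1 is the kinase that drives entry into mitosis once it is bound to a B-type cyclin, encoded by CCNB1 or CCNB2, and CDC25C is a phosphatase that switches the kinase on by removing inhibitory phosphates. BIRC5 (survivin) belongs to the chromosomal passenger complex, which controls chromosome attachment and cytokinesis. Muscle fibres have left the cell cycle, so transcripts of this kind are known mainly from the dividing cells that lie between and along the fibres.

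Total RNA from the Longissimus muscle of 15 pigs was hybridised to 1-colour Agilent arrays at a body weight of 20 kg, with a separate array for each pig. The 7 RFIneg pigs came from a line selected for low residual feed intake (RFI), and the 8 RFIpl pigs from a line selected for high RFI; all were fed ad libitum. RFI is the feed eaten beyond the predicted need for maintenance and growth, so a low RFI means better feed efficiency. From each frozen sample 150 ng of RNA was amplified and labelled with Cy3. Age and sex of the pigs are not given in the labels used here. In whole muscle, fewer cells of a type and less RNA per cell cannot be told apart.

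The scanner software flagged between 61.7% and 79.5% of an array's non-control probes as well above background, no spot was saturated, and levels correlated between arrays across genes at 0.969 to 0.993 (genes are not independent replicates). The arrays lay on 4 slides, each with pigs of both lines, and their numbers fall into a run from 55 to 62 (3 RFIneg and 4 RFIpl pigs) and a run from 1 to 8 (4 RFIneg and 4 RFIpl pigs). Below, the level of a probe is the log2 of its background-corrected (processed) signal minus the 75th percentile of that quantity over the non-control probes of the same array. A level below 0 is thus under the 75th percentile of its array, and levels of different probes are not set against each other, because probes bind with different strength. Where a gene had several probes, the one with the highest mean level stood for it. Skeletal muscle identity was clear from its defining genes: 7 of 9 listed fibre genes were measured, and their mean level had a median of 9.40 over RFIneg pigs and 9.41 over RFIpl pigs.

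What the arrays read for these genes is a single stretch of 60 bases per probe, and for several members the outcome depended on which stretch was read. Shown are 7 of the 14 probes: that of PCNA and 1 of CDK1, whose signals stood clear of background, both of PRIM2, 1 of CCNB2 and 2 of CDC25C, genes whose probes disagreed or were not always detected. The other probes are given by name only, among them CDK1 A_72_P293014 and CDC25C A_72_P426204, which stand for their genes below, and CCNB2 A_72_P775809. They are written 5′ to 3′ as the array design gives them, all in lower case, since no part of a probe is singled out.
PCNA A_72_P552916: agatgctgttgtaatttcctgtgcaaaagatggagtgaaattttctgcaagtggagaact
CDK1 A_72_P440916: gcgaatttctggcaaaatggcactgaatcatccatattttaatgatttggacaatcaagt
PRIM2 A_72_P214097: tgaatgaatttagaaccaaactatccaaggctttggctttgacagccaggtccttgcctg
PRIM2 A_72_P476816: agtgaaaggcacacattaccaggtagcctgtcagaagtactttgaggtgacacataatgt
CCNB2 A_72_P440521: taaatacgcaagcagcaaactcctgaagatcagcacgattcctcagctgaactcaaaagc
CDC25C A_72_P336133: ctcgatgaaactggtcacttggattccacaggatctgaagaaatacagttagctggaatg
CDC25C A_72_P440766: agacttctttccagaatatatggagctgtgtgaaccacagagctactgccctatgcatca

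Of the 14 probes, 11 were well above background on all 15 arrays. The exceptions were PRIM2 probe A_72_P214097 (6 of 7 RFIneg arrays and 4 of 8 RFIpl arrays), CCNB2 probe A_72_P775809 (6 of 7 and 6 of 8) and CDC25C probe A_72_P440766 (6 of 7 and 7 of 8). The array of RFIneg pig 2 was among those that missed the flag for each of these 3 probes, and it also had the lowest share of probes well above background in the series, at 61.7%.

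Scanner brightness shows how close some members lay to the floor. Before any correction, the spot of MCM3 read 69.6, 83.2 and 121 (lowest, median and highest) in RFIneg pigs, against 55.8, 71.9 and 93.6 in RFIpl pigs, where the median negative-control spot of an array read 26.5 to 45.5. That is a median of 2.03 times the negative controls for MCM3. The probe that stands for CCNB2, A_72_P440521, was at 1.90 times the negative controls. For BIRC5 probe A_72_P303219 the same ratio was 23.7, and for CDK1 probe A_72_P293014 it was 7.02. In all, 4 probes read less than 2 times the negative controls (the dim probes: PRIM2 A_72_P214097, both CCNB2 probes and CDC25C A_72_P440766) and 6 read more than 5 times (the bright probes: those of PCNA, BIRC5, CDK1 and CCNB1).

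Among the replication genes, MCM3 was 1.5-fold higher in RFIneg than in RFIpl muscle. Its levels were -3.54, -3.24 and -2.19 (lowest, median and highest) in RFIneg pigs, against -3.94, -3.61 and -3.10 in RFIpl pigs, and the difference of means was 0.58 ± 0.20 (SE, n = 7 and 8). RFIneg pigs 4, 6 and 7 lay above every RFIpl pig, and the rest of the RFIneg pigs overlapped with RFIpl.

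The lines overlapped little for PRIM2 on the processed scale. Levels of its probe A_72_P476816 were -2.71, -2.46 and -2.38 in RFIneg pigs, against -3.33, -2.83 and -2.68 in RFIpl pigs, a difference of 0.41 ± 0.096 (SE), or 1.33-fold. In 54 of the 56 pairs of 1 pig from each line the RFIneg pig was higher; RFIneg pig 1, the lowest of its line, fell below RFIpl pigs 7 and 8. With normexp it was 40 of the 56 pairs. Across all genes, every RFIneg pig stood above every RFIpl pig for 4 of 4535 (0.0882%), and none of the 8 members was among them.

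PCNA had levels of -1.30, -0.89 and -0.59 in RFIneg pigs, against -1.75, -1.15 and -0.89 in RFIpl pigs. The difference was 0.34 ± 0.15 (SE), or 1.27-fold, and 4 RFIneg pigs lay above the highest RFIpl pig while RFIneg pigs 1 and 5 lay below the RFIpl median.

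Among the mitotic genes, BIRC5 had levels of 0.86, 1.36 and 1.73 in RFIneg pigs, against 0.62, 0.78 and 1.35 in RFIpl pigs, a difference of 0.43 ± 0.15 (SE), or 1.35-fold. Its lines overlapped through RFIneg pigs 1, 3 and 5, each of which lay below RFIpl pigs 2 and 4. RFIneg pig 3 also lay below RFIpl pig 5. CDK1 had levels of -0.96, -0.45 and 0.26 in RFIneg pigs, against -1.28, -0.99 and -0.20 in RFIpl pigs, a difference of 0.48 ± 0.20 (SE), or 1.40-fold. RFIneg pig 6 was the highest of all 15 for CDK1, and RFIpl pig 4 was the only RFIpl pig above the RFIneg median.

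The B-type cyclins followed the same outline, with more overlap for CCNB1. The RFIneg pig was higher in 40 of 56 pairs of pigs for CCNB1, against 47 for CCNB2 and 45 for CDK1. CCNB1 had levels of -1.11, -0.55 and 0.056 in RFIneg pigs, against -1.20, -0.94 and -0.36 in RFIpl pigs (difference 0.28 ± 0.16 SE, 1.21-fold), and a single RFIneg pig, number 6, lay above all RFIpl pigs. CCNB2 had levels of -4.11, -3.65 and -3.06 in RFIneg pigs, against -4.60, -4.13 and -3.22 in RFIpl pigs (0.45 ± 0.19 SE, 1.37-fold). Again RFIneg pig 6 alone lay above every RFIpl pig, and 5 RFIpl pigs lay below every RFIneg pig. CDC25C, the activator of CDK1, had levels of -2.12, -1.93 and -1.44 in RFIneg pigs, against -2.33, -2.21 and -1.70 in RFIpl pigs (0.25 ± 0.13 SE, 1.19-fold), with RFIneg pigs 2 and 7 above every RFIpl pig.

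**Figure D1:**
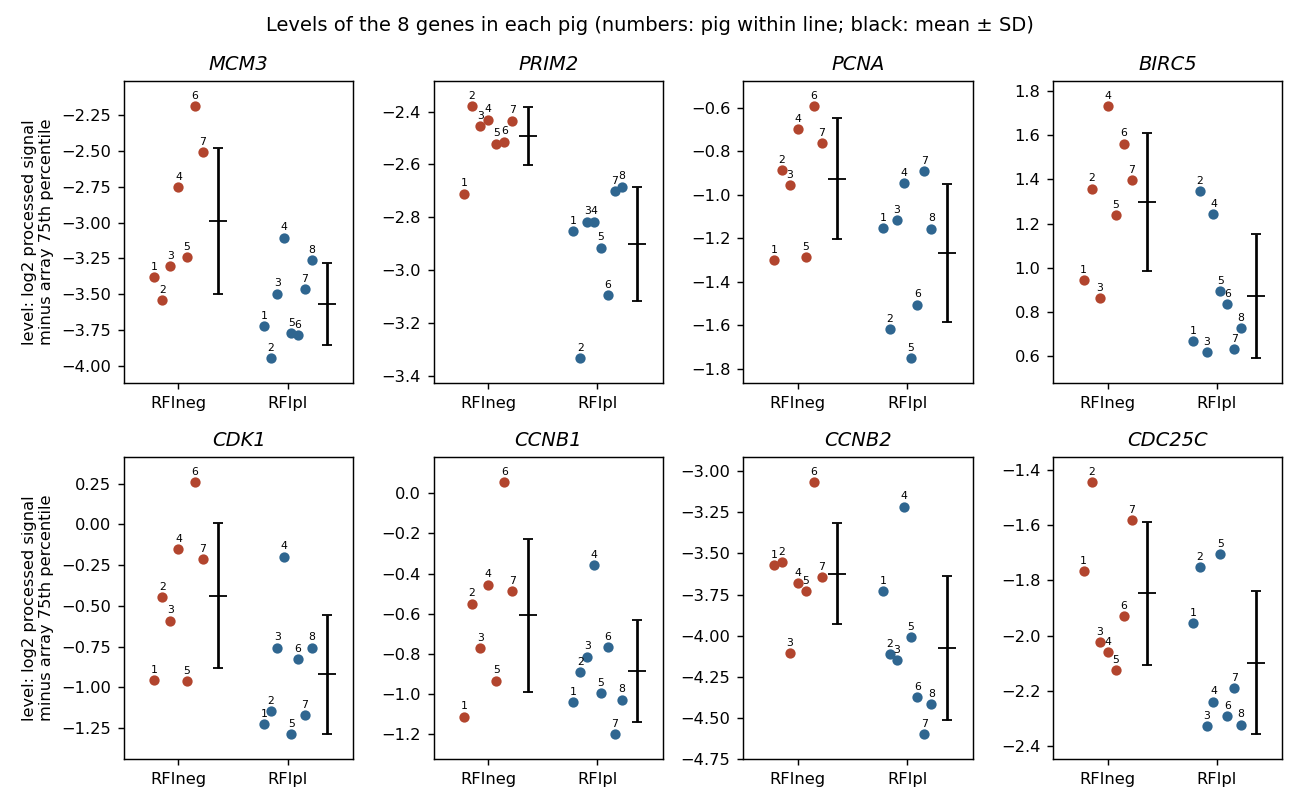
Level on the log2 scale, relative to the 75th percentile of the array, of each of the 8 genes in every pig, RFIneg left and RFIpl right; each point is a pig with its number within the line, and the black bar is the mean ± SD (n = 7 and 8). RFIneg pig 6 is the highest point for MCM3, PCNA, CDK1, CCNB1 and CCNB2, and RFIpl pig 4 is the highest of its line for MCM3, CDK1, CCNB1 and CCNB2.

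All 8 genes were thus higher on average in RFIneg muscle, with a median difference of 0.42, where 55.2% of all 4535 genes were higher in RFIneg and the median over all genes was 0.016. None of the 8 passed limma at an adjusted p under 0.05, a threshold that 0.0221% of all genes passed, and 6 of the 8 had an unadjusted p under 0.05 with the higher mean in RFIneg, as had 4.21% of all genes (7.12% in either direction). These counts come from the contrast with which the genes were picked. RFIneg pig 6 was the highest of the 15 for 5 of the 8 genes and RFIneg pig 2 for 2 of them; RFIneg pig 4 was among the top 3 for 6. No RFIneg pig was the lowest of the 15 for any of the 8, and that place was shared by RFIpl pigs 2, 3, 5 and 7. Without RFIneg pig 6 the median difference over the 8 genes was 0.36, and that of CCNB1 was 0.17.

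The size of the line difference depended on how the background was treated, and more so for the dim probes. Figures without any background correction (mean spot signal) gave 0.24 for MCM3, 0.23 for PRIM2, 0.28 for PCNA and 0.42 for BIRC5, and 0.43 for CDK1, 0.24 for CCNB1, 0.20 for CCNB2 and 0.15 for CDC25C. With normexp, a model-based correction with an offset of 50, the differences of MCM3, PRIM2, CCNB2 and CDC25C were 0.075, 0.085, 0.00064 and 0.034. On that scale BIRC5 kept 0.44, CDK1 0.38, PCNA 0.22 and CCNB1 0.19. The 6 bright probes had a median difference of 0.42 with the processed signal, 0.39 uncorrected and 0.34 with normexp; for the 4 dim probes the medians were 0.41, 0.16 and -0.022. Over all genes, normexp also lowered the share that was higher in RFIneg to 44.6%.

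**Figure D2:**
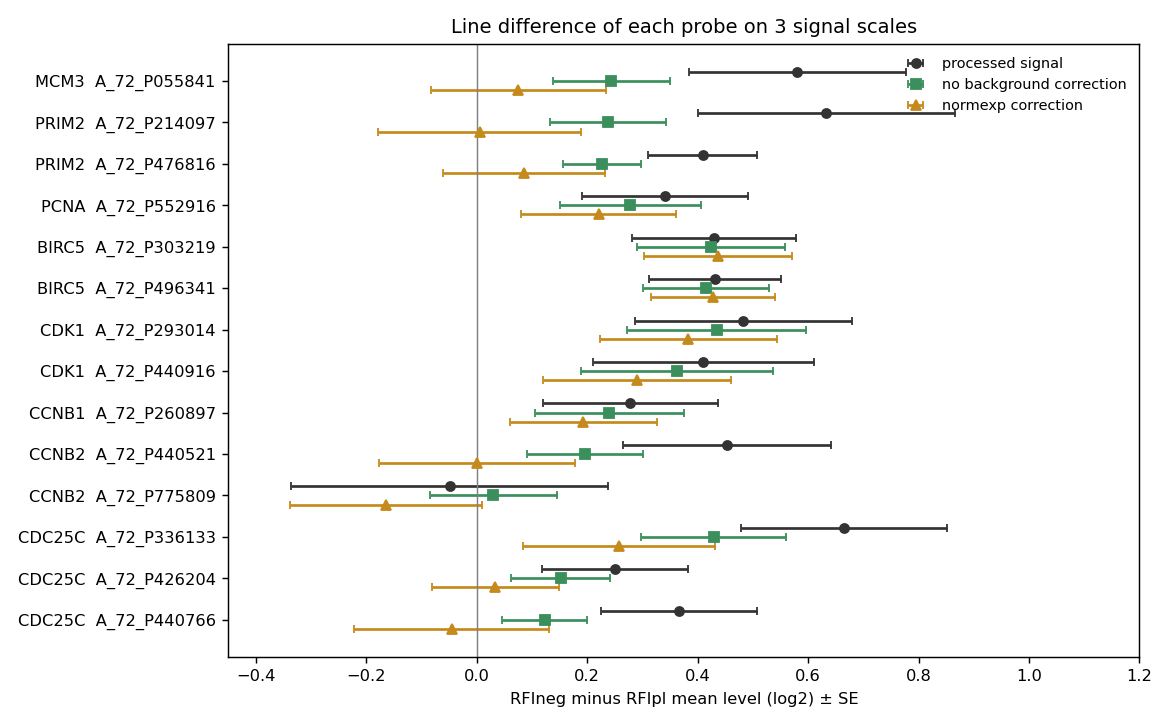
Line difference (RFIneg minus RFIpl mean level, log2, with its SE) of each of the 14 probes from the processed signal (circles), the uncorrected mean signal (squares) and the normexp-corrected signal (triangles). The BIRC5 probes lie at 0.43 on the processed scale and close to it on the others, while MCM3 lies at 0.58, 0.24 and 0.075.

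On the normexp scale 3 arrays stood apart, 1 of RFIneg and 2 of RFIpl. The normexp signal of the median negative control was 116 on the array of RFIneg pig 2, against 197 and 143 on those of RFIpl pigs 4 and 8, and between 56.8 and 62.4 on the other arrays. The arrays of RFIpl pigs 4 and 8 carried the highest normexp levels of MCM3 among all pigs, so that values ran from -2.07 to -1.74 in RFIneg pigs, against -2.37 to -1.18 in RFIpl pigs. Without all 3 arrays, a choice made after seeing the data, the median difference of the 8 genes on the normexp scale was 0.26, against 0.14 with them; without the 2 RFIpl arrays alone it was 0.29.

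Probes of the same gene told partly different stories. The probes of BIRC5 gave line differences of 0.43 and 0.43 and those of CDK1 0.48 and 0.41. For PRIM2 the dimmer probe, A_72_P214097, gave 0.63 ± 0.23 (SE) against 0.41 ± 0.098 for A_72_P476816, and for CDC25C the differences were 0.67, 0.25 and 0.37. CCNB2 was split: A_72_P440521 gave 0.45 ± 0.19 (SE) and A_72_P775809 gave -0.049 ± 0.29. With line means removed, the CDK1 probes followed each other across the 15 pigs at a Pearson r of 0.97 (Spearman rho 0.97, within-line permutation p = 1e-05 for both, the smallest that the 100000 resamples allow, adjusted p = 7e-05 over the 7 same-gene probe pairs), and r stayed at 0.93 without the 2 pigs farthest from the median. The BIRC5 probes did so at r = 0.87 (rho 0.88, permutation p = 0.00021, adjusted p = 0.000735; 0.98 without the 2 farthest pigs). The PRIM2 probes had r = 0.47 (rho 0.67, permutation p = 0.0338, adjusted p = 0.0788; 0.79 without the 2 farthest pigs). For CCNB2 the 2 probes had r = 0.10 (rho 0.093, permutation p = 0.735), with 0.91 within arrays 55 to 62 and -0.17 within arrays 1 to 8. The 3 CDC25C pairs ranged from -0.50 to 0.36 and none passed. Values given for CCNB2 and CDC25C therefore hold for the named probe.

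The line difference was looked at again within slides and within runs of array numbers. With slide as a fixed block the median difference of the 8 genes was 0.41. Within the 4 slides it was 0.68, 0.32, 0.00020 and 0.54. The slide near 0 held RFIneg pigs 3 and 5 and RFIpl pigs 4 and 7; on it, PCNA differed by -0.20 and PRIM2 by 0.27, and PRIM2 was higher in RFIneg on each of the 4 slides. Within the run of arrays 55 to 62 the median difference was 0.58, and within arrays 1 to 8 it was 0.25. CCNB2 differed most between them, at 0.87 in arrays 55 to 62 and 0.073 in arrays 1 to 8.

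The choice of the genes did not use the run of array numbers, so the runs could be tested. For none of the 8 genes did arrays 55 to 62 differ from arrays 1 to 8 at an adjusted p under 0.05 (limma with line as a covariate, adjusted over 4535 genes). Of all genes 3.75% passed, 2.23% higher and 1.52% lower in arrays 55 to 62. None of the 8 had an unadjusted p under 0.05 (limma), while 1038 of all 4535 genes had one. MCM3 came closest, with mean levels of -3.17 in arrays 55 to 62 and -3.41 in arrays 1 to 8 and a fitted difference of 0.27 ± 0.19 (SE, adjusted p = 0.409). This value rested on the background treatment, being -0.017 with normexp and -0.0010 without correction, and it was 0.15 without RFIneg pig 6. The other 7 differences lay between -0.18, for CCNB2, and 0.059, for PRIM2. No member's line difference passed the test of a change between the runs, and no gene of the array did (0% of 4535 genes, limma; 253 genes had an unadjusted p under 0.05). CCNB2 had the smallest p among the 8, with a line difference 0.80 ± 0.33 (SE) larger in arrays 55 to 62 (limma unadjusted p = 0.0287, adjusted p = 0.855). That value was 0.093 with normexp, 0.40 without background correction and 0.22 with the mean of both CCNB2 probes.

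Among the 28 pairs of members, CDK1 and CCNB1, the kinase and its cyclin, had the highest correlation across pigs. With line means removed, their levels correlated over the 15 pigs at r = 0.92 (rho 0.89, within-line permutation p = 4e-05, adjusted p = 0.00112 over the 28 member pairs). The value was 0.83 without RFIneg pig 6 and RFIpl pig 4, the pigs farthest from the median, 0.89 within arrays 55 to 62 and 0.96 within arrays 1 to 8. Among 4473 genes measured in every pig, CCNB1 ranked 4 in likeness to CDK1 and CDK1 ranked 5 in likeness to CCNB1.

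Of the 28 pairs of members, 21 had a positive r, where 50.6% of all gene pairs had one, and 8 reached 0.6 or more, which 3.41% of all gene pairs did. An adjusted p under 0.05 was found for 7 pairs by Pearson's r and for 4 by Spearman's rho; genes picked together from the same arrays are no independent sample of pairs, so these p-values describe the pairs and not the set. Beside CDK1 with CCNB1, the pairs by Pearson's r were MCM3 with CDK1 (r = 0.79, permutation test, adjusted p = 0.0157), MCM3 with PCNA (0.71), PCNA with CDK1 (0.70), PRIM2 with PCNA (0.68), BIRC5 with CCNB1 (0.67) and CCNB1 with CCNB2 (0.64). The 4 by Spearman's rho were CDK1 with CCNB1, MCM3 with PCNA, PCNA with CDK1 and BIRC5 with CCNB1. MCM3 with CDK1 did not pass by rho (permutation test, adjusted p = 0.0603). Each of the 7 was positive in both runs of array numbers, and 5 of them kept a permutation p under 0.05 without the 2 pigs farthest from the median. For CCNB1 with CCNB2 r was 0.11 without RFIneg pig 6 and RFIpl pig 4, so that this relation rests on those pigs. CDC25C had r of -0.35 to MCM3, -0.30 to PRIM2 and -0.33 to PCNA, none of which passed. With normexp these were 0.69, 0.75 and 0.33, the first and second of them passing, and without correction -0.035, 0.0074 and -0.24. With normexp without RFIpl pigs 4 and 8 they were 0.16, 0.40 and -0.12, and none passed.

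How many pairs passed depended on single pigs and on the scale. It was 1 without RFIneg pig 6 and 1 without RFIpl pig 4, 3 without RFIneg pig 5 or 7, and 4 without RFIneg pig 1 or RFIpl pig 5. With normexp 16 pairs passed, 6 of them among the 7; without the arrays of RFIpl pigs 4 and 8 it was 2, and without that of RFIneg pig 2 as well it was 0 by the within-line permutation test, with 6 of 28 at an unadjusted p under 0.05 over 12 pigs. CDK1 with CCNB1 passed under 26 of 27 alternatives (adjusted p from 0.00028 to 0.0507), the exception being this last one, in which r was 0.90.

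**Figure D3:**
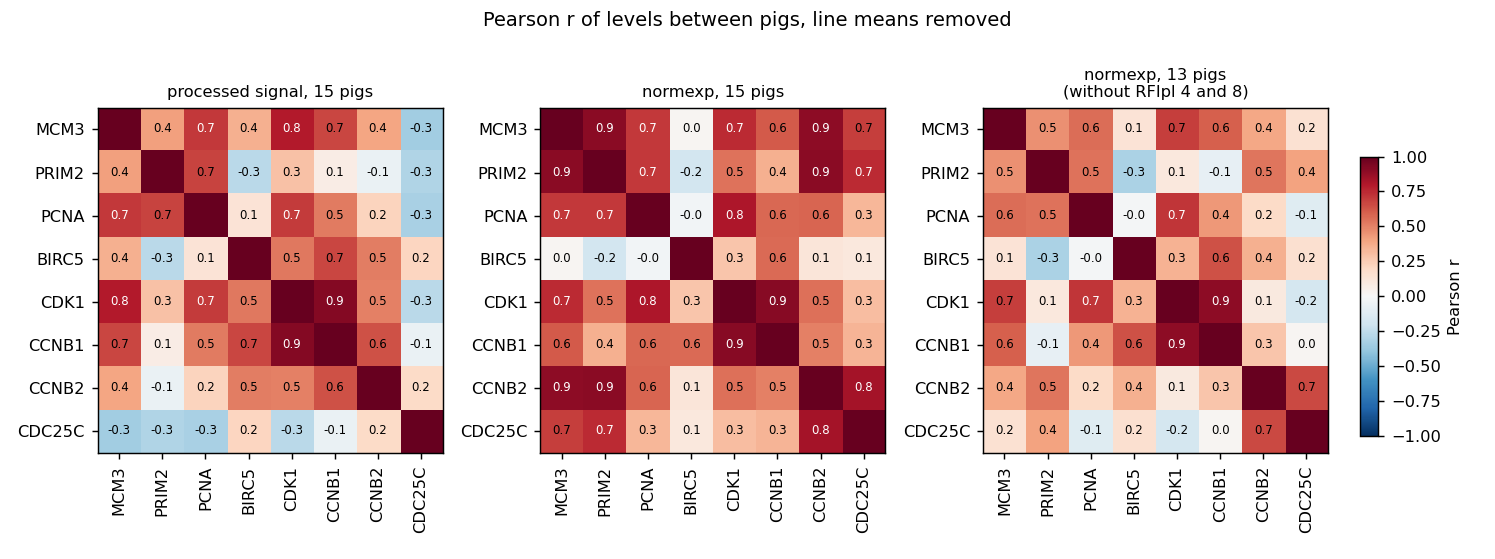
Pearson r between each pair of the 8 genes across pigs with line means removed, from the processed signal (left, 15 pigs), the normexp signal (middle, 15 pigs) and the normexp signal without RFIpl pigs 4 and 8 (right, 13 pigs). CDK1 with CCNB1 is at 0.92, 0.91 and 0.89, while PRIM2 with CCNB2 is at -0.065, 0.91 and 0.54.

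The genes whose pattern was most like that of each member, by Pearson r over 15 pigs with line means removed, were named without regard to function. For CDK1 they were TOP2A (0.96), a topoisomerase that untangles replicated chromosomes, MYBL2 (0.94), a transcription factor of dividing cells, and KIFC1 (0.92), a kinesin of the mitotic spindle. For CCNB1 they were SPAG5 (0.94), a spindle protein, MYBL2 (0.94), and ESPL1 (0.93), the separase that cuts sister chromatids apart. RFIneg pig 6 was the highest of the 15 for TOP2A, MYBL2, KIFC1, SPAG5 and ESPL1, as it was for CDK1 and CCNB1.

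For MCM3 the closest genes were CDCA7 (0.91), TUBA1B (0.91), an alpha-tubulin, and SLC38A1 (0.86), an amino acid transporter. PCNA was closest to RAD18 (0.91), the ubiquitin ligase that modifies the PCNA protein at stalled forks, and to the splicing factor genes SRSF1 (0.89) and SRSF2 (0.86). PRIM2 was closest to SYAP1 (0.85), ZRANB2 (0.84) and ADK (0.84), the adenosine kinase gene. BIRC5 was closest to PRDM1 (0.79), CDK4 (0.77), a kinase of the G1 phase, and MLLT10 (0.71). CCNB2 was closest to ST8SIA2 (0.77), ID2 (0.74) and DCAF7 (0.73), and CDC25C to LGALS12 (0.86), PLSCR4 (0.83) and TGFA (0.81). These are the highest of 4473 values in each case and are given as a description.

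**Figure D4:**
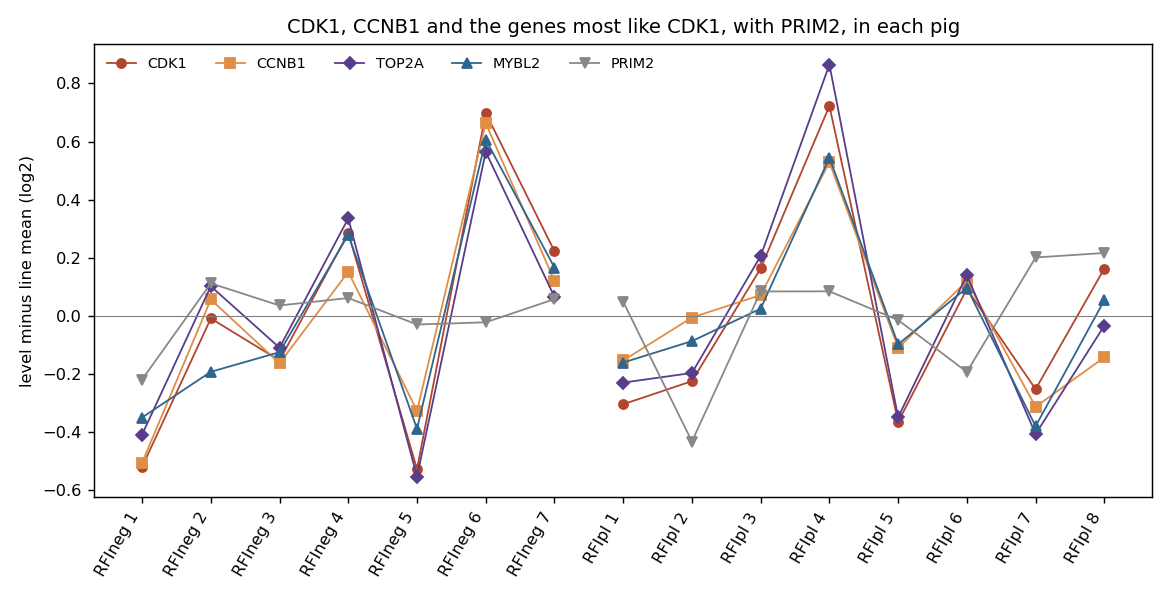
Level minus the line mean (log2) of CDK1, CCNB1, TOP2A, MYBL2 and PRIM2 in each pig, RFIneg pigs left and RFIpl pigs right. CDK1, CCNB1, TOP2A and MYBL2 are far above the line mean together in RFIneg pig 6 and RFIpl pig 4. They are below it together in RFIneg pigs 1, 3 and 5 and RFIpl pigs 1, 2, 5 and 7. PRIM2 stays near its line mean in RFIneg pig 6 and RFIpl pig 4.

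Other genes of the same processes were measured for a part of the lists only. Of 50 further replication genes 7 were tested, and none passed the line or the run contrast (limma). In each contrast 1 of the 7 had an unadjusted p under 0.05 (limma), as had 7.12% of all genes for line and 1038 of 4535 for run. In RFIneg 6 of the 7 were higher, as were 55.2% of all genes, with a median difference of 0.13. With normexp it was 4 of 7, against 44.6% of all genes, with a median of 0.017. DBF4, the activator of the kinase that fires replication origins, had mean levels of -2.27 in RFIneg and -2.53 in RFIpl pigs (0.26 ± 0.099 SE, limma adjusted p = 0.625). PRIM1, the catalytic primase subunit that partners PRIM2, had -0.69 in RFIneg and -0.82 in RFIpl pigs (0.13 ± 0.12 SE), and POLA1, the catalytic subunit of DNA polymerase alpha, differed by 0.12 ± 0.14 (SE). RFC4, a subunit of the complex that loads PCNA onto DNA, differed by 0.32 ± 0.17 (SE). On the normexp scale, DBF4, PRIM1, POLA1 and RFC4 differed by 0.028, 0.093, -0.059 and 0.017.

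Of 55 further mitosis and cyclin genes 21 were tested. All 21 had a higher mean in RFIneg, as had 55.2% of all genes, and the median difference was 0.24. None passed the line contrast (limma), and 9 had an unadjusted p under 0.05, as had 7.12% of all genes. The list was drawn up with earlier results of these arrays known, so its direction is no independent evidence. PTTG1 (securin, which holds separase back) had mean levels of 0.36 in RFIneg and -0.12 in RFIpl pigs, a difference of 0.48 ± 0.15 (SE, limma adjusted p = 0.459). TOP2A differed by 0.35 ± 0.20 (SE) and CDC20, an activator of the anaphase-promoting complex, by 0.35 ± 0.21. The mitotic kinase genes PLK1, AURKA and AURKB differed by 0.28 ± 0.23, 0.16 ± 0.098 and 0.035 ± 0.17, and CCND3, a G1 cyclin gene, by 0.17 ± 0.13. With normexp, 18 of the 21 were higher in RFIneg, as were 44.6% of all genes, and the median was 0.11. CDC20 and PLK1 were not among the 18, at -0.011 and -0.081. PLK1 was well above background on 12 arrays only.

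Of 24 genes for regulators of the cell cycle programme 9 were tested. In RFIneg 7 of them were higher, as were 55.2% of all genes, with a median difference of 0.065. With normexp it was 5 of 9, against 44.6% of all genes, with a median of 0.0036. MYBL2 differed by 0.18 ± 0.16 (SE) and E2F1, a transcription factor that switches on replication genes, by 0.023 ± 0.12. Of 8 inhibitors of cyclin-dependent kinases 3 were tested. CDKN1A (p21) had mean levels of 6.01 in RFIneg and 6.29 in RFIpl pigs (-0.28 ± 0.30 SE), CDKN1B (p27) differed by 0.056 ± 0.12 and CDKN3, a phosphatase that acts on cyclin-dependent kinases, by 0.096 ± 0.099. RFIneg pig 6 had the lowest CDKN1A level of the 15 pigs, 4.97. None of these regulator and inhibitor genes passed the line contrast (limma; none had an unadjusted p under 0.05) or the run contrast. For the runs, 4 of the 9 regulators and 1 of the 3 inhibitors had an unadjusted p under 0.05, as had 1038 of all 4535 genes, and the median run difference was -0.16 for the regulators and 0.095 for the inhibitors.

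Markers of other cell types were read in the same pigs. Their counts stand beside 55.2% of all genes that were higher in RFIneg. Of 6 satellite cell and myoblast genes 4 were tested (MYF5, MYOD1, MYOG and PAX3; PAX7 and CDH15 were not tested), and none was higher in RFIneg, with a median difference of -0.13. The mean of the 4 ran from -0.98 to -0.34 in RFIneg pigs and from -0.52 to -0.24 in RFIpl pigs, with RFIneg pig 6 at the bottom. That pig was the lowest for MYF5 and MYOG, but ranked 12 from the top for MYOD1 and 5 for PAX3. MYF5 was well above background on 11 arrays only. MYOD1, a transcription factor that commits cells to the muscle lineage, had mean levels of -0.67 in RFIneg and -0.13 in RFIpl pigs (-0.54 ± 0.17 SE, limma adjusted p = 0.459). Of 9 leukocyte genes 4 were tested (CD14, CD163, CD3E and CD8A), with 2 higher in RFIneg and a median difference of 0.14. The median was 0.023 with normexp and 0.017 with the deposited values, and it was -0.18 over the 2 genes that were well above background on all 15 arrays, both lower in RFIneg. The mean of all 4 leukocyte genes ran from -2.12 to -0.23 in RFIneg pigs and from -2.17 to -0.36 in RFIpl pigs. RFIneg pig 6, at -0.23, and RFIpl pig 5, at -0.36, stood above all others, of which the highest was at -1.46. RFIneg pig 6 was the highest pig for CD3E and CD8A, which encode T-cell surface proteins. CD3E was well above background on 14 arrays and CD8A on 10. RFIpl pig 5 had the lowest CDK1 and PCNA levels of all 15 pigs, but the highest CDC25C level of its line (-1.70). That pig was not the lowest for any other of the replication and mitosis genes described here. Whether the leukocyte levels bear on those genes was not tested.

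All 5 endothelial genes were tested, with 2 higher in RFIneg; their mean ran from 1.26 to 1.56 in RFIneg pigs and reached 1.78 in RFIpl pigs, with a median of 1.43 in RFIneg and 1.38 in RFIpl, and RFIpl pig 4 was the highest. Of 6 fibroblast genes 4 were tested, 3 of them higher in RFIneg, and their mean ran from 2.66 to 3.38 in RFIneg pigs and from 2.38 to 3.45 in RFIpl pigs. Of 5 adipocyte genes 4 were tested and 1 was higher in RFIneg, with means from 0.65 to 2.12 in RFIneg pigs and from 0.63 to 2.16 in RFIpl pigs. Of 6 red cell precursor genes only TFRC, the transferrin receptor gene, was tested; it ran from -3.10 to -0.80 in RFIneg pigs and from -3.23 to -1.02 in RFIpl pigs and was highest in RFIneg pig 6. The part of these cell types in the levels of the 8 genes was not tested.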

How the data were processed

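Per the file headers, the scanner intensity values come from Feature Extraction 10.7.3.1 (protocol GE1_107_Sep09), which subtracted background and set the flags; R 2.10.0 is named in the submitters' processing notes. The deposited log2 values equalled the log2 of the processed signal, centred on the array median of their 29364 rows (largest difference 4.93e-08) and served as an alternative. Other columns used, per the file headers, were mean signal, background and flags, whose unit is intensity or other.

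Control spots and non-uniform spots were left out, and spots of a probe were averaged. A probe was tested when well above background on at least 7 of 15 arrays with at least 4 values per line (31984 of 43603 probes). Of all probes, 11868 had 1 symbol from the files or the RefSeq genes of Sscrofa11.1, 321 had a LOC name only and 31414 had several or none. MCM3 was named through its accession, PRIM2 through its gene ID and 1 CDC25C probe through its description.

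Lines (RFIneg minus RFIpl), runs of array numbers and their interaction were tested with limma 3.58.1 (lmFit, eBayes; R 4.3.3, statmod 1.5.0 and version 1.17.8 of data.table), two-sided, with Benjamini-Hochberg adjustment over 4535 genes. Correlations used 100000 within-line permutations in Python 3.11.15 (numpy 2.4.6, pandas 2.3.3, scipy 1.17.1, matplotlib 3.10.9). The replicates are pigs, and their number limits the precision. On simulated data with 200 changed genes, the line fit recovered 70% of genes changed 1.5-fold and 95% of those changed 2-fold among 4535. The simulated noise was independent between genes and held no run effect, and the adjusted threshold depends on how many genes change. These shares therefore do not give the detection rate on the real arrays, on which 1 gene passed the line contrast. The members, lists and tests were chosen with earlier results of these data known; named genes were all members, a list of cell cycle genes, and the 3 genes most like each member. Alternatives covered background correction, normalization, deposited values, filters, probe choice, blocks and leaving out each array.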

Additional observations from a re-analysis of the deposited data

Results flagged for a closer look

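The PRIM2 level of RFIneg pig 1 was -2.71, set apart at the low end of its line, in which the next lowest pig was at -2.52 and the highest at -2.38. Its gap made up 0.572 of the line's range, just past Dixon's 95% critical value of 0.568 for 7 samples. Over the 16 sets examined (8 genes in 2 lines) this was the only one, and chance gives about 1 in 20.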

How the results depend on the processing

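The median line difference of the 8 genes was 0.42 and stayed positive under every alternative run, from 0.14 with normexp and 0.24 without background correction to 0.43 with the mean of all probes; leaving out each array gave 0.36 to 0.45. The number of member pairs past the threshold was 7; it was 16 with normexp, 2 with normexp without RFIpl pigs 4 and 8, 0 with normexp without RFIneg pig 2 as well (both added after seeing the data), and 1 to 9 when each array was left out. With normexp, MCM3 with CDC25C (r = 0.69), PRIM2 with CCNB2 (0.91) and PRIM2 with CDC25C (0.75) turned positive and passed, against -0.35, -0.065 and -0.30. With normexp without RFIpl pigs 4 and 8 they were at 0.16, 0.54 and 0.40, and none of them passed. The cause was not tested. No run difference or interaction of a member passed under any alternative (limma), but some of these values changed sign, among them the run difference of MCM3 with normexp and without background correction. Over all genes, 170 passed the run contrast; with normexp it was 63, without background correction 432, and 75 to 235 when each array was left out. The line contrast gave 1 gene, and 0 to 2 when each array was left out. Signals close to the negative controls limit what the 4 dim probes, of PRIM2, CCNB2 and CDC25C, can show. The limit reaches beyond them. MCM3 read 2.03 times the negative controls, and its line difference went from 0.58 to 0.075 with normexp. The probes that stand for PRIM2 and CDC25C, not counted as dim, went from 0.41 to 0.085 and from 0.25 to 0.034.

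Replicate numbers are shared by the lines, but the labels do not say that they pair pigs. Deviations of same-numbered pigs correlated across genes at -0.034 to 0.31. The values for pig numbers 1 and 5 were 0.049 and -0.034, and all others lay between 0.16 and 0.31. With a replicate block the median line difference was 0.41 and no gene passed. The run contrast with a replicate block could not be fitted, since each number lies in a single run.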
